A study of Mus musculus with 6 samples.

Results

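Ntrk3 encodes TrkC, the receptor for neurotrophin-3, and its transcripts were followed here in interscapular brown fat, a depot at the upper back of the mouse whose cells burn fuel to make heat. GENCODE M21 assigns 20 transcripts to Ntrk3, and 13 of them had at least 1 read, of 59371 annotated transcripts with a read in the series. The gene was chosen by its read counts, which were far lower in cold mice than in control mice, so its own levels in that contrast are given as a description, with no test.

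TrkC belongs to the Trk family of neurotrophin receptors, as does TrkB, which Ntrk2 encodes. When neurotrophin-3 binds, paired full-length receptors phosphorylate each other through their intracellular kinase domain, and docked adaptors pass the signal to the Ras and MAP kinase, PI3 kinase and Akt, and phospholipase C gamma pathways. Alternative splicing also makes truncated TrkC, which keeps the ligand-binding and membrane-spanning parts, has a short tail of its own in place of the kinase, and can still bind neurotrophin-3. TrkC is best known from neurons, and truncated forms of the Trk receptors are also found in glia and other non-neuronal cells.

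Tissue came from 6 male C57BL/6N mice aged 20 weeks, wild type per the labels. Cold mice (n = 3, mouse numbers 4, 11 and 15) spent 24 h alone in a cage at 4 °C, and ctrl mice (n = 3, mouse numbers 2, 9 and 14) were held at 22 to 24 °C. The labels do not say whether ctrl mice were housed alone; if they were not, cold and single housing cannot be told apart. Poly(A) RNA was read by nanopore direct cDNA sequencing, a long-read method without PCR, at 1657985 to 2238056 reads per mouse over 2 flow cells. The extraction text of the labels names another fat depot (eWAT) at the homogenisation step, while the tissue field says brown fat. Ucp1 alone was at 13665 to 13889 CPM in cold mice and 9700 to 11228 CPM in ctrl mice. The summed level of 12 brown adipocyte markers, Ucp1 among them, was 37088 to 39149 CPM in cold mice and 26502 to 29600 CPM in ctrl mice. Its largest member was Fabp4, at 18833 to 20711 CPM in cold mice and 13241 to 14687 CPM in ctrl mice. CPM here divide a count by the TMM-scaled library size, so that mice can be compared.

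Full-length and truncated TrkC share the first 528 codons and part at 1 splice junction. The full-length transcript, Ntrk3-201, has 17 exons, 825 codons and 19703 nt, and spans chr7:78175959-78578408 of GRCm38 on the minus strand. The truncated transcript, Ntrk3-202, has 14 exons, 612 codons and 3977 nt, and spans chr7:78300690-78577982. The next lines show where they part, as GENCODE M21 gives the transcript sequences, 5′ to 3′, with the last shared bases (chr7:78356027-78356041) in lower case. Capitals in the first line mark the truncated tail to its stop codon, from the exons at chr7:78304292-78304426 and chr7:78302629-78302747. Capitals in the second line mark the first 120 nt (chr7:78260295-78260414) of the exon that follows in the full-length form and is absent from the truncated one, an exon of 131 nt at chr7:78260284-78260414.
Ntrk3-202 truncated tail: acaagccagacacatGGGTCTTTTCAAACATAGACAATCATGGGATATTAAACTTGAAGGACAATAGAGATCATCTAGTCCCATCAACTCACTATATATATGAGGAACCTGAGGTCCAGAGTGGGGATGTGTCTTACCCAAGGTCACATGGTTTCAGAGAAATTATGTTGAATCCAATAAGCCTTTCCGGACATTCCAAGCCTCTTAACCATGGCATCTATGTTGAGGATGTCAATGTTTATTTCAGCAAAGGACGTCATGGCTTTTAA
Ntrk3-201 full-length branch: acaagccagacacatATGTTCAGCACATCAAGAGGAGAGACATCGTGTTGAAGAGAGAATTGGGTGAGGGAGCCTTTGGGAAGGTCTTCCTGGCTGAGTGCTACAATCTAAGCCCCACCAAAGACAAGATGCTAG

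The kinase domain lies behind that branch. A search of the translated reading frames for the catalytic-loop and activation-loop motifs that protein kinases share found both in 3 transcripts, Ntrk3-201, Ntrk3-205 and Ntrk3-206, at codons 677 and 697, and found neither in Ntrk3-202. The stretches that carry these motifs are at chr7:78247224-78247268 and chr7:78247170-78247214, and capitals mark the motif codons.
Ntrk3-201 catalytic loop: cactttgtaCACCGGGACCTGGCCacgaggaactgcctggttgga
Ntrk3-201 activation loop start: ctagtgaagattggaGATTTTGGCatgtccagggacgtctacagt

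Ntrk3-205 and Ntrk3-206 differ from Ntrk3-201 by an insert within the kinase domain, of 14 codons (42 nt) in Ntrk3-205 and 39 codons (117 nt) in Ntrk3-206. Kinase inserts of this sort are a known feature of TrkC and alter its signalling in cultured cells. The insert follows the activation loop start, and capitals mark it. The exon at chr7:78204103-78204144 is used by both, and the one at chr7:78229487-78229561 by Ntrk3-206.
Ntrk3-205 kinase insert: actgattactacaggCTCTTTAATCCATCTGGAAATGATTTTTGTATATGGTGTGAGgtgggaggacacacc
Ntrk3-206 kinase insert: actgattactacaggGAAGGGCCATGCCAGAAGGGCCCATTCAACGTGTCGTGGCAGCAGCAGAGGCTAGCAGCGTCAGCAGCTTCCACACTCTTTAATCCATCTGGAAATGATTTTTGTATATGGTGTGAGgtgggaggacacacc

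Which bases a read covered decides how it can be assigned, and the tables hold counts only. Ntrk3-201 has 12548 nt that no other Ntrk3 transcript holds, of which 12399 are in its 3′ untranslated region, 149 in its 5′ untranslated region and 0 in coding sequence. The 1633 such bases of Ntrk3-202 are all in its 3′ untranslated region. The 3′ untranslated region makes up 16600 nt (84.3%) of Ntrk3-201 and 1939 nt of Ntrk3-202. Nanopore cDNA is made from the poly(A) end, so a read counted for Ntrk3-201 need not reach the kinase exons; read lengths were not analysed here.

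**Figure D1:**
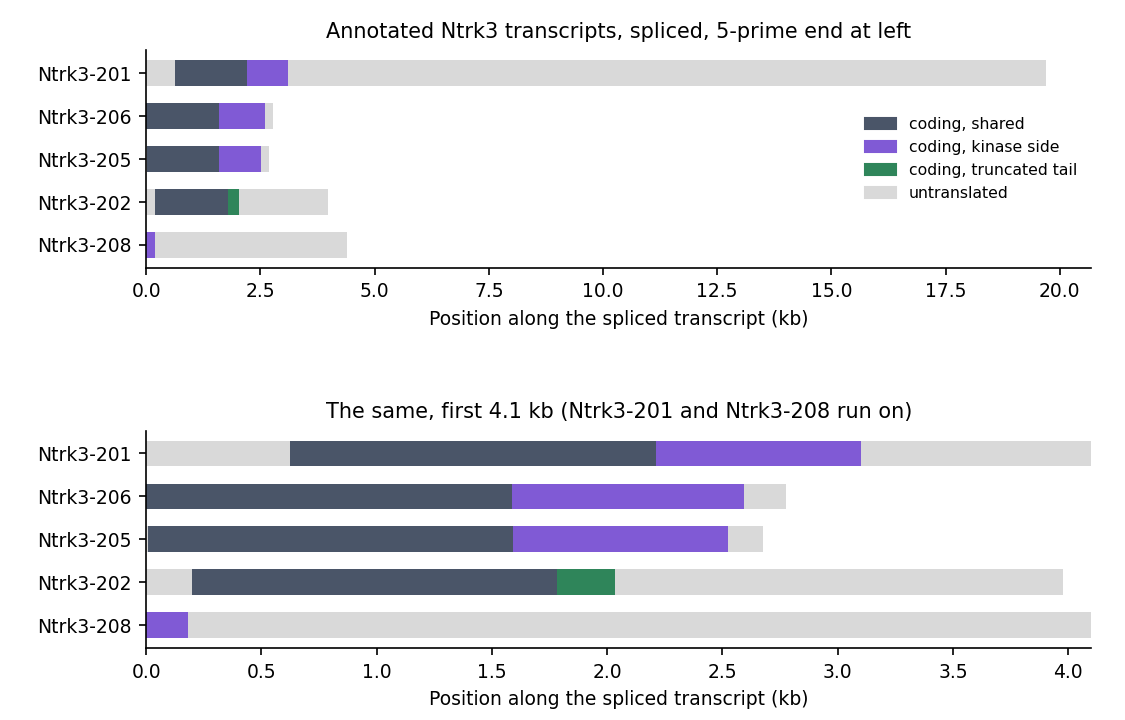
Spliced length of 5 annotated Ntrk3 transcripts in kb, whole above and the first 4.1 kb below, with the shared coding part, the kinase side, the truncated tail and untranslated parts in separate colours. Ntrk3-201 is far longer than Ntrk3-202 because of its 3′ untranslated region of 16600 nt, and Ntrk3-208 holds only the end of the kinase-side coding sequence.

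Ntrk3 had 20, 7 and 3 reads in cold mice 4, 11 and 15, against 119, 192 and 199 reads in ctrl mice 2, 9 and 14. The highest cold mouse was far below the lowest ctrl mouse. Levels were 9.66, 3.51 and 1.75 CPM in the cold mice and 68.9, 98.0 and 92.6 CPM in the ctrl mice. From the summed reads, 30 in cold and 510 in ctrl mice, the level was 16.8-fold lower in cold mice, with an exact 95% interval of 11.7 to 25.2 that covers counting error only. The fitted log2 fold change of cold over ctrl was -4.00, the most negative of 8684 tested genes. Of those genes, 848 (9.77%) were lower in cold mice at an adjusted p under 0.05, and 17.8% were lower with no overlap between groups. Cold mouse 4 held most of the cold reads, and without it the log2 fold change was -4.88. In whole tissue, fewer cells that carry a transcript and less of it per cell cannot be told apart.

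The full-length transcript Ntrk3-201 had 6, 2 and 2 reads in cold mice 4, 11 and 15, against 67, 90 and 122 reads in ctrl mice 2, 9 and 14. Its level averaged 1.69 ± 1.05 CPM in cold mice and 47.2 ± 9.06 CPM in ctrl mice (SD, n = 3 each), and the groups did not overlap. The summed reads, 10 in cold and 279 in ctrl mice, gave a 27.6-fold lower level in cold mice, with a counting interval of 14.8 to 58.3. Its fitted log2 fold change of -4.60 was the most negative of 11699 tested transcripts, of which 7.95% were called lower in cold mice and 15.6% were lower with no overlap. That value was -3.92 on flow cell 1, with 9 reads in cold and 161 in ctrl mice, -5.60 on flow cell 2, with 1 read in cold and 118 in ctrl mice, and -5.16 without cold mouse 4.

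The truncated transcript Ntrk3-202 had 9, 3 and 1 reads in cold mice 4, 11 and 15, against 35, 72 and 52 reads in ctrl mice 2, 9 and 14. It too was lower in every cold mouse than in any ctrl mouse, at 2.14 ± 1.96 CPM in cold mice and 27.1 ± 8.61 CPM in ctrl mice (SD, n = 3 each). From 13 reads in cold and 159 in ctrl mice, the level was 12.1-fold lower in cold mice, with a counting interval of 6.89 to 23.3 that overlaps that of Ntrk3-201. Its log2 fold change was -3.46, number 4 among the tested transcripts from the most negative end, and -4.37 without cold mouse 4.

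**Figure D2:**
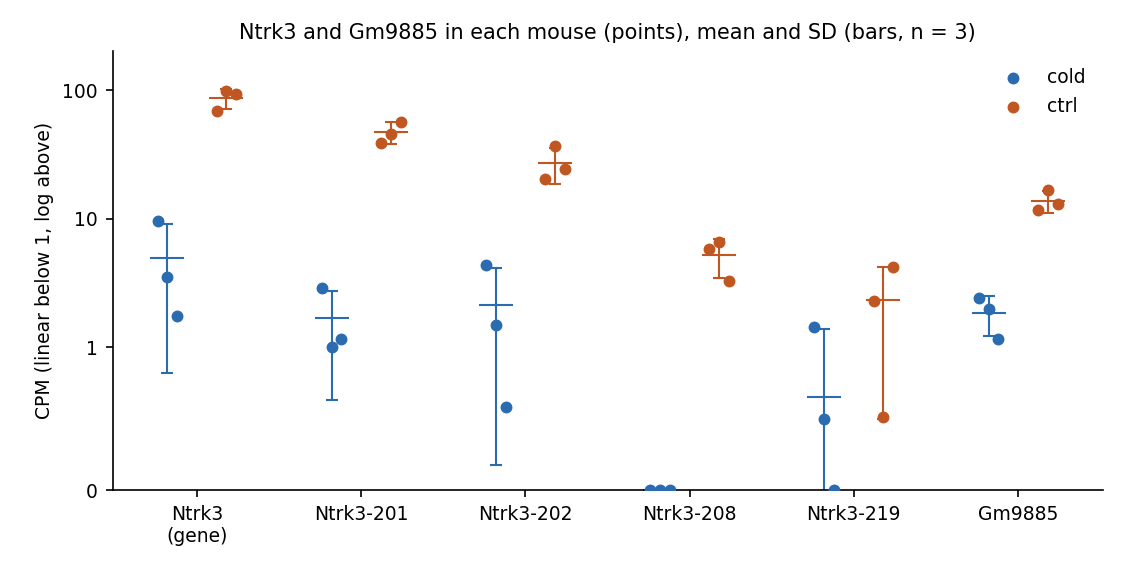
CPM in each mouse for the Ntrk3 gene, 4 of its transcripts and the antisense gene Gm9885, on an axis that is linear below 1 and logarithmic above, with cold mice left of ctrl mice and bars for mean and SD over 3 mice. Cold and ctrl mice are apart for the gene, Ntrk3-201, Ntrk3-202, Ntrk3-208 and Gm9885, and overlap for Ntrk3-219.

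The transcripts with a kinase insert were scarce in both groups. Ntrk3-206 had 1, 0 and 0 reads in cold mice 4, 11 and 15 and 1, 4 and 3 reads in ctrl mice 2, 9 and 14, a ratio of cold to ctrl of 0.126 with a counting interval of 0.00284 to 0.941. Ntrk3-205 had 0 reads in all 3 cold mice and 2 reads in ctrl mouse 14. Ntrk3-205 has no base of its own among the Ntrk3 transcripts, since Ntrk3-206 also holds its insert, and Ntrk3-206 has 75 coding bases of its own. All 3 kinase-coding transcripts together had 11 reads in cold and 289 in ctrl mice, a 26.0-fold lower level in cold mice with a counting interval of 14.3 to 52.7.

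Ntrk3-208, annotated as a target of nonsense-mediated decay, the pathway that degrades mRNAs with a stop codon in an unusual place, had 0 reads in all 3 cold mice and 10, 13 and 7 reads in ctrl mice 2, 9 and 14. Against a floor of 3 reads over the cold group, the level was at least 9.91-fold lower in cold mice. All 4386 bases of Ntrk3-208 are also in Ntrk3-201, from which it differs by a splice within the 3′ untranslated region, so only reads across that junction tell them apart. It made up 5.88% of Ntrk3 reads in ctrl mice, with an exact interval of 4.00 to 8.29%.

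A group of 5 non-coding transcripts starts far upstream of the coding exons and ends before them. They had 6 reads in cold and 18 in ctrl mice, a 2.97-fold lower level in cold mice with a counting interval of 1.13 to 9.15. Ntrk3-219 held most of these reads, with 3, 1 and 0 in cold mice 4, 11 and 15 and 4, 1 and 9 in ctrl mice 2, 9 and 14. Cold and ctrl mice overlapped for Ntrk3-219. Ntrk3-218 had 1 read in cold and 4 in ctrl mice, Ntrk3-217 had 1 read in cold and 0 in ctrl mice, and Ntrk3-209 and Ntrk3-215 had none. The upstream group made up 20.0% of Ntrk3 reads in cold mice (6 of 30, exact interval 7.71 to 38.6%). In ctrl mice it made up 3.53% (18 of 510, exact interval 2.10 to 5.52%). Per mouse, it had 4 of 20, 2 of 7 and 0 of 3 reads in cold mice 4, 11 and 15. In ctrl mice 2, 9 and 14 it had 4 of 119, 4 of 192 and 10 of 199. The per-mouse shares of cold and ctrl mice overlap, and the intervals cover counting error only. A shift in this share was not tested.

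The remaining annotated transcripts were rare. Ntrk3-203, Ntrk3-204, Ntrk3-207, Ntrk3-210 and Ntrk3-220 had 0 reads in cold mice and 5, 3, 1, 1 and 4 reads in ctrl mice. Ntrk3-211, Ntrk3-212, Ntrk3-213, Ntrk3-214 and Ntrk3-216 had no read in either group. Of the 20 transcripts, Ntrk3-201 and Ntrk3-202 passed the filter on low counts, which they did through their levels in ctrl mice.

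Within ctrl mice, Ntrk3-201 and Ntrk3-202 made up 85.9% of the Ntrk3 reads (438 of 510; exact interval 82.6 to 88.8%), with 54.7% for Ntrk3-201 and 31.2% for Ntrk3-202. Per mouse, the truncated form took 34.3% of their joint reads in ctrl mouse 2, 44.4% in ctrl mouse 9 and 29.9% in ctrl mouse 14. The mean was 36.2% ± 7.46 (SD, n = 3), and Ntrk3-201 was given more reads than Ntrk3-202 in all 3 ctrl mice. Both flow cells gave like shares in ctrl mice, 37.1% on the first and 35.2% on the second. In cold mice the truncated share was 60.0% (9 of 15 reads), 60.0% (3 of 5) and 33.3% (1 of 3) in mice 4, 11 and 15. Over all cold mice it was 56.5% (13 of 23; exact interval 34.5 to 76.8%), against 36.3% in all ctrl mice (159 of 438; 31.8 to 41.0%). These intervals overlap, and the per-mouse shares of cold and ctrl mice overlap. The intervals cover counting error only, and cold mouse 4 held 9 of the 13 truncated reads in cold mice. A shift in the ratio was not tested, and the cold reads are too few to settle it.

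**Figure D3:**
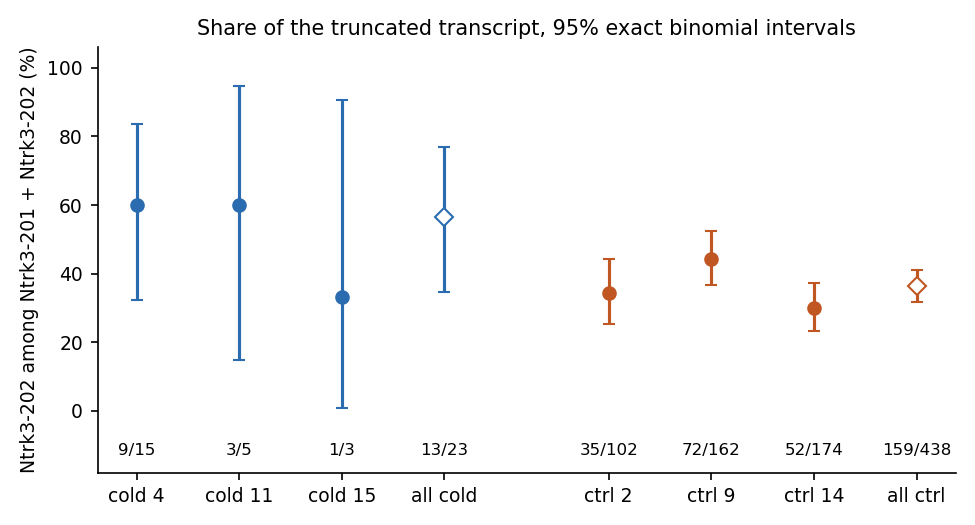
Percent of reads that were Ntrk3-202 among reads of Ntrk3-201 and Ntrk3-202, in each mouse (filled circles) and over each group (open diamonds), with 95% exact binomial intervals and the read counts printed below. The intervals of the cold mice, which rest on 3 to 15 reads, cover the 36.3% of the ctrl group.

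Beside the levels of Ntrk3 stand the markers of other cells that the tissue could hold. The summed level of 18 Schwann cell and nerve markers was 156 to 189 CPM in cold mice and 163 to 219 CPM in ctrl mice (exact two-sided permutation test over 6 mice, p = 0.60). None of its 5 tested members was called, with Mbp, a myelin protein, at a log2 fold change of -0.32. Th, Dbh and Nefl, markers of sympathetic nerves and axons, had no read. The summed level of 15 pericyte and smooth muscle markers was 365 to 469 CPM in cold mice and 365 to 398 CPM in ctrl mice (exact permutation p = 0.90). Of its 13 tested members, 15.4% were called, beside 19.5% of all tested genes. Mylk was called higher (log2 fold change 0.74, edgeR adjusted p = 0.00190) and Rgs5 lower. The sum joins pericyte and smooth muscle genes that moved in both directions, so it does not show either cell type alone. Rgs5 averaged 77.3 CPM in cold mice and 128 CPM in ctrl mice (log2 fold change -0.71, edgeR adjusted p = 4.59e-05). The sum also holds Des, at 44.9, 71.1 and 150 CPM in cold mice 4, 11 and 15 (30.1 to 47.9 CPM in ctrl mice). In cold mice the skeletal muscle sum rose in the same order. The pericyte sum without Des was not tested. The groups did not overlap for 12 brown adipocyte markers (given above). Of these, 5 were called higher and 1, Adipoq, lower (50.0%, beside 19.5% of all tested genes). Sums of 14 endothelial markers did not overlap, at 557 to 573 CPM in cold mice and 459 to 465 CPM in ctrl mice. Nor did those of 8 white adipocyte markers, at 125 to 151 CPM in cold mice and 66.0 to 105 CPM in ctrl mice. Retn made up most of the white adipocyte sum, at 91.7 to 127 CPM in cold mice and 49.8 to 64.8 CPM in ctrl mice. Of 4 tested white adipocyte markers, Retn and Nnat were called higher (50.0%). Nnat passed the filter on low counts through its levels in cold mice, the group where it was high. Lep was at a log2 fold change of -1.14 and not called, and 2 of the 8 had no read. Lymphocyte markers did not overlap either, at 2.50 to 3.49 CPM in cold mice and 5.10 to 8.38 CPM in ctrl mice. The lymphocyte sums rest on few reads, since 3 reads equal 1.34 to 1.81 CPM before TMM scaling. None of the 12 lymphocyte markers passed the filter on low counts. Each of these 4 sums (brown adipocyte, endothelial, white adipocyte and lymphocyte) gave an exact permutation p of 0.10, the smallest that 3 against 3 mice allow. Summed skeletal muscle markers ranged from 298 to 3746 CPM in cold mice and from 96.0 to 671 CPM in ctrl mice, fibroblast markers from 627 to 763 CPM in cold mice and from 563 to 700 CPM in ctrl mice, and macrophage markers from 103 to 136 CPM in cold mice and from 69.3 to 104 CPM in ctrl mice. Among fibroblast markers, 11 were tested and 45.5% were called, beside 19.5% of all tested genes. Ly6a and Gsn were higher in cold mice, and Col1a1, Col1a2 and Col3a1 were lower. The calls of Gsn, Col1a1 and Col1a2 were lost in some alternatives. The part of any of these markers in the Ntrk3 result was not tested.

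The ligands were near the limit of detection. Ntf3, the gene of neurotrophin-3, had 2, 3 and 2 reads in cold mice 4, 11 and 15, against 0, 5 and 5 reads in ctrl mice 2, 9 and 14. Bdnf, whose product binds TrkB, had 1 read in cold and 2 in ctrl mice. Ntf5, which encodes neurotrophin-4, had no read, and none of these ligands passed the filter on low counts. A difference in their mRNA was not detectable at this depth.

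Among the other receptors, Ntrk2, the gene of TrkB, was clearly detected and was not called. Its level was 115, 112 and 89.1 CPM in cold mice 4, 11 and 15, against 100, 101 and 94.0 CPM in ctrl mice 2, 9 and 14. The groups overlapped, and its log2 fold change was 0.11 with a standard error (SE) of 0.11 (edgeR's quasi-likelihood test, adjusted p = 0.558). Sort1, the gene of sortilin, which sorts Trk receptors and binds neurotrophin precursors, averaged 48.1 ± 8.69 CPM in cold mice and 52.5 ± 6.84 CPM in ctrl mice (edgeR adjusted p = 0.589). Ngfr, the gene of the shared neurotrophin receptor p75, had 4 reads in cold and 5 in ctrl mice. Ptprs, whose product is a synaptic partner of TrkC, had 17 reads in cold and 20 in ctrl mice, and its relative Ptprf had 6 in each. Sorcs1 had 0 reads in cold and 1 in ctrl mice, and Sorcs3 had none. Sorcs2, a sortilin relative, had 5, 6 and 3 reads in cold mice 4, 11 and 15, against 6, 19 and 11 reads in ctrl mice 2, 9 and 14. It did not pass the filter, and with no filter its log2 fold change was -1.26 (SE 0.45, edgeR adjusted p = 0.0356). So 2 of the 9 listed receptors and co-receptors were tested and neither was called, where 19.5% of all tested genes were.

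Ntrk2 also has kinase and truncated transcripts, and these were looked at after the values of the gene were known. The kinase form Ntrk2-201 had 26 reads in cold and 25 in ctrl mice, and Ntrk2-207, which also codes for the kinase, had 3 in cold and 4 in ctrl mice. The truncated form Ntrk2-202 had 168, 135 and 112 reads in cold mice 4, 11 and 15, against 113, 127 and 125 reads in ctrl mice 2, 9 and 14. Its log2 fold change was 0.18 (SE 0.12, edgeR adjusted p = 0.369), where 16.3% of all tested transcripts were called. Ntrk2-204, another truncated form, had 142 reads in cold and 157 in ctrl mice, at a log2 fold change of -0.15 (SE 0.19, edgeR adjusted p = 0.682). Most Ntrk2 reads were therefore counted for truncated transcripts in both groups. For Ntrk3 in ctrl mice, more reads were counted for Ntrk3-201 than for Ntrk3-202. As above, a read counted for Ntrk3-201 need not reach the kinase exons. Which bases set the Ntrk2 transcripts apart was not analysed, so the contrast is one of assigned counts.

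Of 48 genes for adaptors and downstream signalling, 38 were tested, 5 were called higher and 2 lower in cold mice. That is 18.4%, close to the 19.5% of all tested genes, of which 9.75% were higher and 9.77% lower, and the median log2 fold change was 0.09, beside 0.00 over all tested genes. Most of these genes serve many receptors. Irs2, an adaptor of the insulin receptor that Trk receptors can also engage, averaged 17.9 ± 9.24 CPM in cold mice and 4.68 ± 2.51 CPM in ctrl mice, at a log2 fold change of 1.87 (SE 0.47, edgeR adjusted p = 0.0186). That call was lost without ctrl mouse 2 (edgeR adjusted p = 0.0979) and without ctrl mouse 9 (edgeR adjusted p = 0.0673). Irs2 passed the filter on low counts through its levels in cold mice, where it was high. Gab2, a docking protein that recruits PI3 kinase, was at 18.6 ± 1.69 CPM in cold mice and 9.14 ± 3.22 CPM in ctrl mice, with a log2 fold change of 1.03 (edgeR adjusted p = 0.00424). Pdpk1, the kinase that activates Akt, averaged 33.6 ± 6.69 CPM in cold mice and 18.8 ± 3.17 CPM in ctrl mice (edgeR adjusted p = 0.00354).

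The Akt genes were called in opposite directions. Akt2, the Akt kinase best known from insulin action, had 129, 131 and 117 CPM in cold mice, against 157, 177 and 174 CPM in ctrl mice. The groups did not overlap, and the log2 fold change was -0.43 (SE 0.09, edgeR adjusted p = 0.00202). Akt1 averaged 53.8 ± 7.46 CPM in cold mice and 38.9 ± 8.25 CPM in ctrl mice, with overlapping groups (edgeR adjusted p = 0.0422). The call of Akt1 was lost in 6 of 13 alternatives, with adjusted p up to 0.875 on flow cell 2 alone. Sh2b2, an adaptor that binds receptor kinases, averaged 53.6 ± 10.8 CPM in cold mice and 76.2 ± 9.85 CPM in ctrl mice (edgeR adjusted p = 0.0166), a call lost in 5 of 13 alternatives, with adjusted p up to 0.174. Pik3r1, a regulatory subunit of PI3 kinase, is named after its values were seen. It had 15.0, 20.5 and 18.1 CPM in cold mice, against 96.6, 86.2 and 34.4 CPM in ctrl mice, and was not called at a log2 fold change of -1.99 (SE 0.53, edgeR adjusted p = 0.0740). It was called in 3 of 13 alternatives: with DESeq2 (adjusted p = 0.000567), on flow cell 1 alone (adjusted p = 0.0435) and without ctrl mouse 14, the lowest of the ctrl mice (adjusted p = 2.26e-09).

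For the partners of truncated TrkC, which is known to bind tamalin and through it to act on Arf6 and Rac1, 5 genes were tested and 1 was called (20.0%, beside 19.5% of all tested genes). Cyth1, an exchange factor for Arf proteins, averaged 43.3 ± 1.85 CPM in cold mice and 31.6 ± 1.96 CPM in ctrl mice (log2 fold change 0.45, edgeR adjusted p = 0.0251). That call was lost in 7 of 13 alternatives, with adjusted p up to 0.198, among them leaving out cold mouse 4, cold mouse 11, ctrl mouse 2 or ctrl mouse 9. Among 13 genes for cleavage, ubiquitination and recycling of receptors, all tested, 1 was called (7.69%, beside the same 19.5%). This was Usp8, a deubiquitinase that acts on internalised receptors, with 60.4, 60.6 and 53.6 CPM in cold mice, against 37.0, 36.7 and 35.8 CPM in ctrl mice (log2 fold change 0.67, SE 0.13, edgeR adjusted p = 0.000553). On flow cell 2 alone the adjusted p of Usp8 was 0.247.

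**Figure D4:**
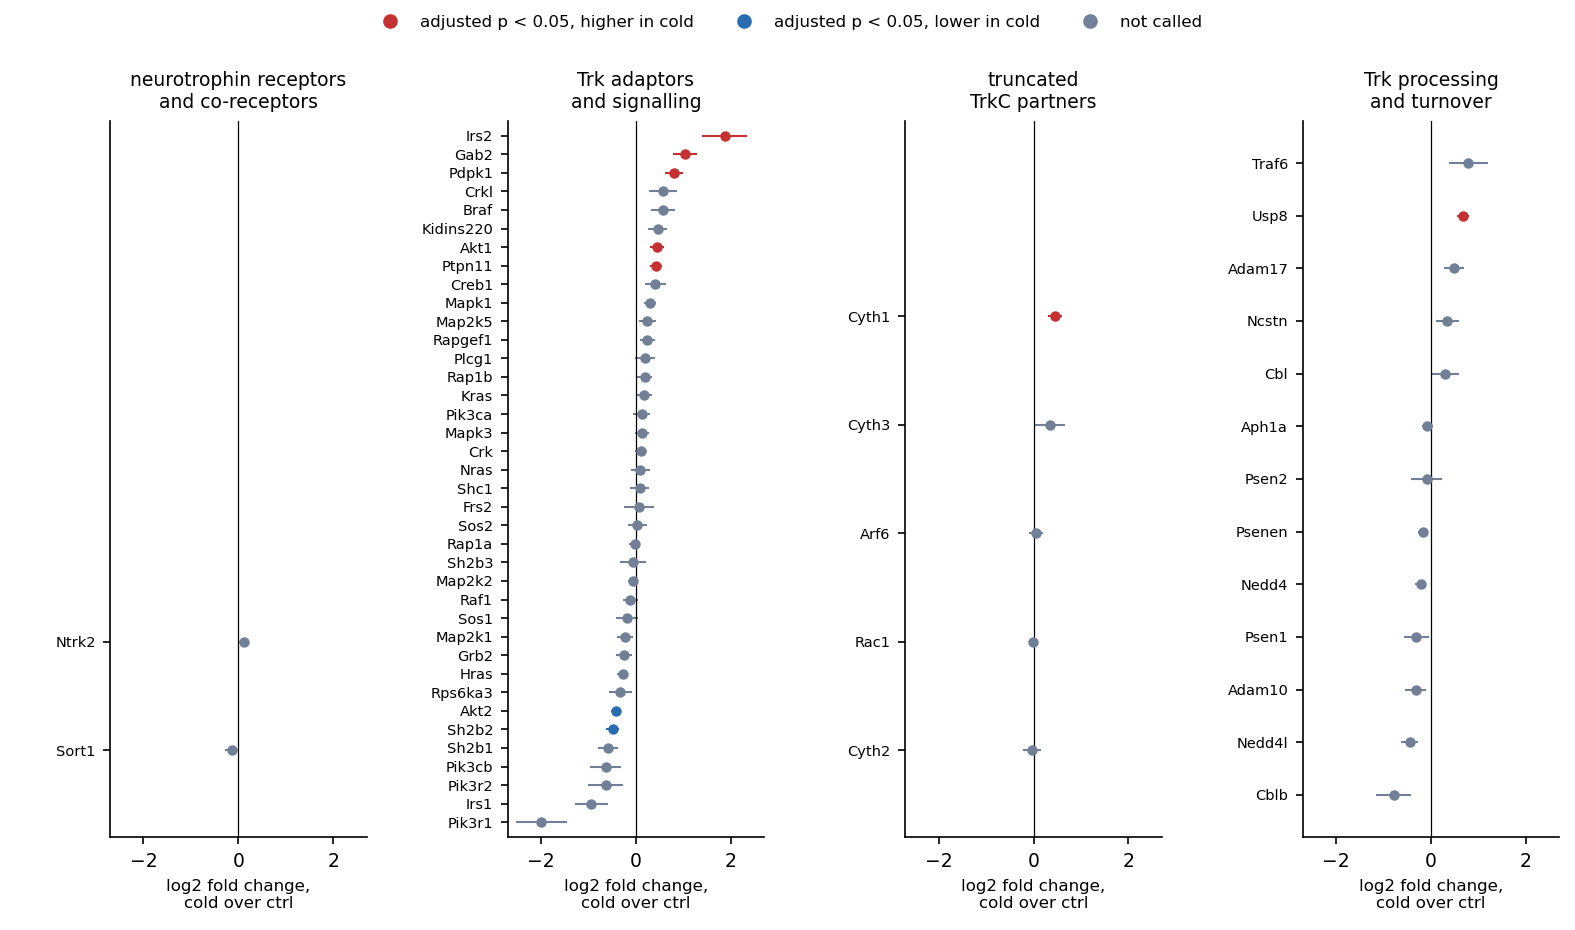
Log2 fold change of cold over ctrl with its SE for the tested genes of 4 lists around Trk signalling, coloured by call at an adjusted p under 0.05. Ntrk2 and Sort1 lie near 0, and the adaptors range from -1.99 for Pik3r1 to 1.87 for Irs2.

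Around Ntrk3, 48 other genes overlap it or lie within 1000 kb of its ends. Of these, 21 had a read and 11 were tested, with 2 called higher and 1 lower in cold mice (27.3%, beside 19.5% of all tested genes). The gene that was lower is Gm9885, an antisense non-coding RNA of 2209 nt at chr7:78578830-78581038 on the plus strand. It starts 422 nt from the start of Ntrk3-201 and 132 nt from that of Ntrk3-220 and runs the other way, so the pair is arranged head to head. The first 120 bases of Gm9885, on the side that faces the Ntrk3 start (chr7:78578830-78578949), are these, from GENCODE M21.
Gm9885 first bases: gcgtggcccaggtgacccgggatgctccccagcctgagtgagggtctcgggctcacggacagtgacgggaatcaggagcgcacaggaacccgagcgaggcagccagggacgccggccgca

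Gm9885 had 5, 4 and 2 reads in cold mice 4, 11 and 15, against 20, 33 and 28 reads in ctrl mice 2, 9 and 14. Every cold mouse was below every ctrl mouse. Its level averaged 1.86 ± 0.638 CPM in cold mice and 13.8 ± 2.72 CPM in ctrl mice, a 6.54-fold lower level (log2 fold change -2.71, SE 0.37, edgeR adjusted p = 6.98e-06). Gm9885 passed the filter on low counts through its levels in ctrl mice, the group where it was high. It was called in each of the 12 alternatives that tested it, at log2 fold changes of -2.91 to -2.32 and edgeR or DESeq2 adjusted p up to 0.000120. Those alternatives rest on the same mice and are not independent support. On flow cell 2 alone it did not pass the filter, with 1 read in cold and 24 in ctrl mice. Gm9885 shares no exon base with Ntrk3 and lies within introns of Ntrk3-210 and Ntrk3-212, and how strand was used in the counting is not given in the sources used here, so reads of opposite strands of this stretch may not have been told apart.

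The other tested neighbours all lie beyond the 5′ end of Ntrk3, and no gene beyond its 3′ end had a read within that distance. Mrpl46, a mitochondrial ribosomal protein gene and the nearest, averaged 75.1 ± 7.11 CPM in cold mice and 54.0 ± 3.93 CPM in ctrl mice (log2 fold change 0.47, edgeR adjusted p = 0.00710). Mrps11, the next, averaged 44.5 ± 2.18 CPM in cold mice and 42.1 ± 2.53 CPM in ctrl mice, with overlapping groups (edgeR adjusted p = 0.743); its start overlaps that of Mrpl46 on the opposite strand, which makes the split of reads between them uncertain. Mfge8, which encodes a secreted glycoprotein that bridges dying cells and phagocytes, averaged 68.7 ± 7.68 CPM in cold mice and 50.2 ± 2.21 CPM in ctrl mice (log2 fold change 0.45, edgeR adjusted p = 0.0112). The call of Mrpl46 was lost with DESeq2 (adjusted p = 0.0663) and on flow cell 1 alone (adjusted p = 0.0634). That of Mfge8 was lost with DESeq2 (adjusted p = 0.0971), on flow cell 2 alone (adjusted p = 0.352) and without cold mouse 15 (adjusted p = 0.0615).

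**Figure D5:**
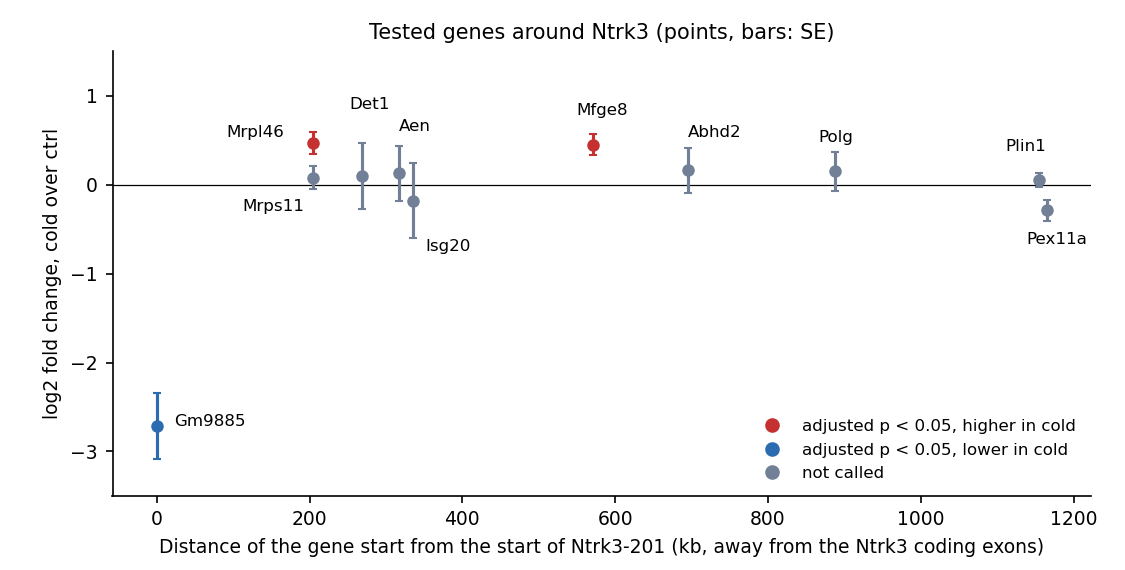
Log2 fold change of cold over ctrl with its SE for the 11 tested genes around Ntrk3, against the distance of their start from the start of Ntrk3-201 in kb. Gm9885, at the Ntrk3 start, is at -2.71, and the other genes lie between -0.29 (Pex11a) and 0.47 (Mrpl46).

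The genes with the profile over the 6 mice most like that of Ntrk3 were sought among 6489 tested genes with a mean of at least 10 CPM, by the smallest root mean square difference of centred log2 CPM. Slc2a5, the gene of the fructose transporter GLUT5, was nearest, at a difference of 0.49 and a Pearson r of 0.988. It had 10, 5 and 4 reads in cold mice 4, 11 and 15, against 53, 112 and 94 reads in ctrl mice 2, 9 and 14. Acly, which makes cytosolic acetyl-CoA from citrate, was next, at a difference of 0.62 and an r of 0.992. It averaged 404 ± 179 CPM in cold mice and 2978 ± 827 CPM in ctrl mice. Slc25a1, the mitochondrial citrate carrier, followed at 0.81 and an r of 0.992, with 124 ± 44.1 CPM in cold mice and 726 ± 174 CPM in ctrl mice. Ttc25, a gene for a protein of motile cilia, was at 0.85 and an r of 0.957, and Lctl, a member of the klotho family, at 0.91 and an r of 0.99. For all 5, as for Ntrk3, cold mouse 4 was the highest and cold mouse 15 the lowest of the cold mice. These profiles contain the cold contrast that the gene was picked for, and the 6 mice fall into separate groups, so the likeness is a description.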

How the data were processed

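The deposited tables hold whole-number read counts per annotated transcript for each mouse and flow cell, made by the authors with minimap2 on GRCm38, per the submitters' processing notes. Not given in the sources used here are the annotation release, strand use, read filters, and how a read that fits more than one transcript was assigned. Identifiers were matched to GENCODE M21: 59371 of 59543 transcripts matched, and the others held 0.084% of 11789059 reads and were left out. Each mouse's 2 flow cells were added up, and transcripts were added up to genes. With 1657985 to 2238056 reads per mouse, 3 reads, the floor used for a count of 0, equal 1.34 to 1.81 CPM before TMM scaling.

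Genes and transcripts were tested over all 6 mice with edgeR 4.0.16 in R 4.3.3 (glmQLFit with robust estimation, glmQLFTest, TMM, filterByExpr, prior count 0.5) with no covariate. Benjamini-Hochberg adjusted p-values over all tested genes or transcripts were called at 0.05. Ratios of summed reads carry exact conditional binomial intervals and shares exact Clopper-Pearson intervals, both at 95%. Summed markers were compared by exact two-sided permutation tests over mice. Python 3.11.15, pandas 2.3.3, scipy 1.17.1 and matplotlib 3.10.9 were used, and DESeq2 1.42.0 was an alternative. Transcripts were compared by sequence with minimap2 2.31-r1302: none of the Ntrk3 transcripts shared 200 nt at 95% identity with another gene.

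Ntrk3 and the gene lists were chosen with earlier results of these data known. Named genes were all Ntrk3 transcripts, ligands and receptors, up to 4 called members per direction of each other list, called and nearest tested neighbours, and the 5 genes most like Ntrk3. Some members of the ligand, receptor and marker lists are not reported here.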

Additional observations from a re-analysis of the deposited data

How the results depend on the processing

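Over 15 alternatives, the log2 fold change of Ntrk3 lay between -4.88 and -3.66, that of Ntrk3-201 between -5.60 and -3.92 and that of Ntrk3-202 between -4.37 and -3.10, and leaving out cold mouse 4 gave -4.88 for the gene. The truncated share in ctrl mice lay between 31.5% and 40.5% over 6 alternatives. Among all genes, 847 were called higher and 848 lower in cold mice, but DESeq2 called 492 higher and 439 lower, and flow cell 2 alone 429 higher and 408 lower. Among transcripts, 975 were called higher and 930 lower, against 515 higher and 481 lower with DESeq2 and 466 higher and 446 lower on flow cell 2 alone. Called receptors numbered 0, and 1 with no filter on low counts. Called adaptors numbered 7, and 3 on flow cell 2 alone. Called partners of truncated TrkC numbered 1, and 0 with DESeq2 and on either flow cell alone, with 0 to 1 when single mice were left out. Called processing genes numbered 1, and 0 on flow cell 2 alone. Called neighbours numbered 3, and 1 both with DESeq2 and on flow cell 2 alone. Flow cell 2 alone has fewer reads by construction; the other causes were not tested. No paired analysis was possible because the mouse numbers differ between cold and ctrl mice. Depth limits the cold values: the truncated share in cold mice rests on 23 reads, and 11 of the 13 transcripts with a read were too rare for the transcript test.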
